A study of Mus musculus with 15 samples.

Results

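The genes described here are 10 members of the bone morphogenetic protein (BMP) pathway in mouse colon, found by symbol among the 22063 genes of the expression table. They are 5 BMP ligands (Bmp2, Bmp3, Bmp4, Bmp5 and Bmp7), 2 secreted antagonists (Grem1 and Nog) and 3 target genes of the inhibitor of differentiation family (Id1, Id2 and Id3). Their identifiers are ENSMUSG00000027358 (Bmp2), ENSMUSG00000029335 (Bmp3), ENSMUSG00000021835 (Bmp4), ENSMUSG00000032179 (Bmp5), ENSMUSG00000008999 (Bmp7), ENSMUSG00000074934 (Grem1), ENSMUSG00000048616 (Nog), ENSMUSG00000042745 (Id1), ENSMUSG00000020644 (Id2) and ENSMUSG00000007872 (Id3). RNA of the colon was sequenced from C57BL/6 mice of wild-type genotype in 3 groups of 5 libraries. The WMW-H group received a treatment that the labels give only by that name, in a study of the herbal formula Wumei Wan in the AOM/DSS tumour model; the labels explain neither "-H" nor the dose. The AOM/DSS group received azoxymethane, a carcinogen, and dextran sulfate sodium, which injures the colon epithelium, a combination used to induce colorectal tumours. The control group is called a blank control. That the WMW-H mice also received AOM/DSS is read from the study's title and design, since their treatment label names WMW-H alone. Labels state no age, sex or sampling time.

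BMP ligands are secreted dimers that bind paired serine/threonine kinase receptors, which phosphorylate the receptor-regulated SMAD proteins. These enter the nucleus with SMAD4 and switch on target genes, among which the Id genes are the best known. In the intestine, BMP signalling is strongest towards the crypt top and favours differentiation, while antagonists made by stromal cells around the crypt base hold it low near the stem cells.

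Each library held 16360000 to 21130000 fragments, as read from the steps between low values, and 16377 to 16692 genes above 0. Values are FPKM, fragments per kilobase and per library size. The labels give the cell type as colon epithelial cells, and the epithelial markers were high, summing to 7252 to 7678 FPKM in WMW-H, 8514 to 8649 in AOM/DSS and 8630 to 8733 in control over 10 genes. Smooth muscle markers were present too, at 2063 to 2186 FPKM over 9 genes in the 15 libraries, as were fibroblast, endothelial, leukocyte and enteric nervous system markers, none of them at 0 in all libraries of a group. Transcripts of other organs differed between groups: 7 pancreatic acinar genes summed to 5935 to 6312 FPKM in WMW-H, 3284 to 3382 in AOM/DSS and 14283 to 14582 in control, and the 4 male accessory gland genes found to at most 3.81 FPKM in WMW-H, 2277 to 2408 in AOM/DSS and at most 3.14 in control. The part of this other tissue in the differences below was not tested. The male accessory gland sums in AOM/DSS and the pancreatic sums in control varied little between the 5 libraries of the group. Libraries of the same group correlated with r from 0.992 to 0.995. Whether they share source tissue was not tested, and no label ties each library to its own mouse. Every p-value below is thus a measure of scatter among libraries, which may be technical, and n counts libraries. WMW-H replicate 3 stood apart from the other libraries on the third principal component, and without it the number of members called higher and lower was the same in all 3 comparisons.

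The 12917 genes that reached 1 FPKM in 5 or more libraries entered the tests. Differences are between group means of log2(FPKM + 1), given as log2 changes, and adjusted p-values are from limma, adjusted over those 12917 genes by the Benjamini-Hochberg method, with 0.05 as the threshold. Of the members, 9 were tested, and each of those 9 was at 1 FPKM or more in all 15 libraries. Nog lay below 1 FPKM in all 15 libraries and was not tested in that fit.

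Among the 9 tested members, 7 rose and 2 fell in AOM/DSS against control. Over all genes tested, 66.1% passed in this comparison, with 45.5% rising and 20.6% falling, so a call by itself is common here. The median log2 change of the 9 was 0.54, against 0.12 for all genes. With size factors that move the median of all genes to 0.003, 49.7% of all calls were rises, against 68.9% as deposited. Rises of at least 2-fold were called for Bmp7 and Grem1, as for 4.16% of all genes, and no member fell by as much, as 1.91% of all genes did. The libraries of the 2 groups did not overlap for 8 of the 9, against 52.9% of all genes. In WMW-H against AOM/DSS, 4 rose and 5 fell, where 66.8% of all genes passed, 25.9% rising and 40.9% falling, and 8 of the 9 did not overlap, against 51.2% of all genes. Rises made 38.8% of all calls there as deposited and 49.6% after quantile normalization. No member changed by at least 2-fold, as 0.836% of all genes did upward and 1.93% downward. In WMW-H against control, 5 rose, 2 fell and 2 did not pass, where 59.5% of all genes passed, 35.4% rising and 24.1% falling. Rises made 48.0% of all calls after quantile normalization. A fall of at least 2-fold was seen for 0 members and 0.914% of all genes. Here 5 of the 9 did not overlap, against 42.3% of all genes. The first 2 comparisons share the AOM/DSS libraries, and the values of each are given side by side below.

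**Figure D1:**
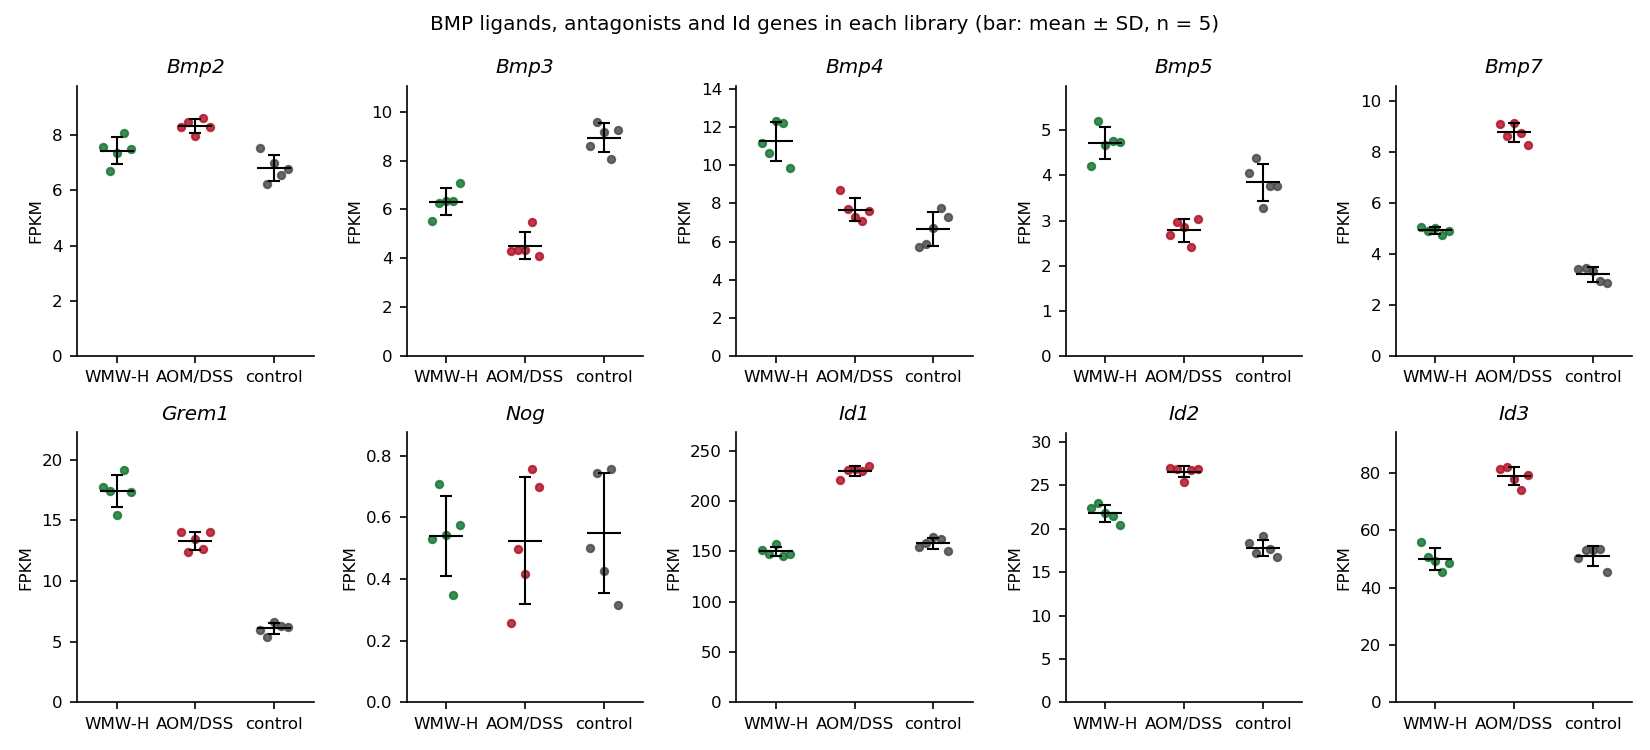
FPKM of the 10 members in each library, with WMW-H on the left, AOM/DSS in the middle and control on the right; points are libraries and bars are the mean ± SD (n = 5). The 3 Id genes and Bmp7 are highest in AOM/DSS, Grem1 and Bmp4 are highest in WMW-H, Bmp3 is highest in control, and Nog, under 1 FPKM throughout, overlaps in all 3 groups.

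The ligands moved in different directions. Bmp7, a ligand that also directs kidney and eye development, was the ligand with the largest rise in AOM/DSS. It was at 5.06, 4.90, 5.03, 4.74 and 4.91 FPKM in the WMW-H libraries, at 9.09, 8.63, 9.15, 8.75 and 8.27 FPKM in the AOM/DSS libraries and at 3.43, 3.46, 3.35, 2.94 and 2.85 FPKM in the control libraries. All AOM/DSS libraries lay above all WMW-H libraries, and these above all control libraries. Its log2 change was 1.22 in AOM/DSS against control (SE 0.05, limma adjusted p = 1.22e-12), or 1.10 above the median of all genes, and 2.97% of tested genes rose by as much or more. It was -0.72 in WMW-H against AOM/DSS (adjusted p = 2.3e-09) and 0.50 in WMW-H against control (adjusted p = 3.3e-07). Since these are bulk samples, fewer cells of a type and less RNA per cell cannot be told apart in this or any other difference given here. Foxl1 is a transcription factor that marks the subepithelial telocytes, a BMP-producing stromal cell of the mouse gut. It was at 1.23 ± 0.129 FPKM in WMW-H, 2.14 ± 0.503 in AOM/DSS and 0.740 ± 0.091 in control (SD, n = 5 each). It belongs to the 10 fibroblast markers described below, of which 6 rose and 4 fell in WMW-H against AOM/DSS. Pdgfra, among the 6, averaged 13.8 FPKM in WMW-H, 12.3 in AOM/DSS and 8.09 in control. The stromal ligand Bmp5, described below, was lowest in AOM/DSS, where Foxl1 was highest. The part of Foxl1 in the Bmp7 difference was not tested.

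Bmp3 went the other way. It encodes an atypical BMP that opposes the other ligands in bone, and in human colorectal tumours its gene is often silenced by methylation. The WMW-H libraries held 5.53, 6.25, 6.34, 6.33 and 7.08 FPKM, the AOM/DSS libraries 4.30, 4.34, 4.35, 5.49 and 4.10 FPKM and the control libraries 8.60, 9.59, 9.18, 8.07 and 9.24 FPKM. Each AOM/DSS library lay below each WMW-H library, and each of these below each control library. Bmp3 fell by 0.85 on the log2 scale in AOM/DSS against control (SE 0.07, limma adjusted p = 1.13e-08), and 2.52% of tested genes fell by as much or more. In WMW-H it was 0.41 higher than in AOM/DSS (adjusted p = 7.36e-05) and stayed 0.44 lower than in control, with a log2 change of -0.44 (adjusted p = 4e-05). The ratio of Bmp7 to Bmp3 was 0.787 ± 0.082 in WMW-H, 1.96 ± 0.213 in AOM/DSS and 0.359 ± 0.032 in control (SD, n = 5 libraries each). Both genes already separated the groups, in opposite orders, so the separation of this ratio follows from them and is no further result.

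Bmp4, a ligand made mainly by the mesenchyme beneath the epithelium, was set apart by WMW-H. It was at 11.2, 10.7, 12.3, 12.2 and 9.87 FPKM in the WMW-H libraries, at 8.69, 7.72, 7.29, 7.09 and 7.59 FPKM in the AOM/DSS libraries and at 5.71, 5.85, 6.69, 7.77 and 7.27 FPKM in the control libraries. All WMW-H libraries lay above all others, while AOM/DSS and control overlapped. The log2 change was 0.50 in WMW-H against AOM/DSS (SE 0.08, limma adjusted p = 3.19e-05) and 0.68 in WMW-H against control (adjusted p = 1.25e-06). In AOM/DSS against control it was 0.19 (adjusted p = 0.0482), of which 0.07 lay above the median of all genes. Of 27 alternatives 17 ended that call, among them size factors (adjusted p = 0.473), quantile normalization (0.876) and the exact rank sum test (0.198). It also ended, with adjusted p-values from 0.0513 to 0.134, when any of 9 single libraries was left out: WMW-H replicate 1 or 2, AOM/DSS replicate 1, 2, 3 or 5, or control replicate 1, 2 or 3.

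Bmp5, another ligand of the stroma below the epithelium, had its lowest level in AOM/DSS. The WMW-H libraries held 4.21, 5.20, 4.69, 4.76 and 4.75 FPKM, the AOM/DSS libraries 2.67, 2.98, 2.86, 2.40 and 3.03 FPKM and the control libraries 4.05, 4.40, 3.28, 3.77 and 3.77 FPKM. The AOM/DSS libraries lay below all others, while 1 WMW-H library lay inside the control range. Bmp5 fell by 0.36 on the log2 scale in AOM/DSS against control (SE 0.07, limma adjusted p = 0.000237). It was 0.59 higher in WMW-H than in AOM/DSS (adjusted p = 9.45e-07), as large a rise as 4.14% of tested genes reached, and 0.24 higher in WMW-H than in control (adjusted p = 0.00675).

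Bmp2, which in the gut is made by epithelial and stromal cells, changed by at most 0.26 on the log2 scale. It averaged 7.44 ± 0.491 FPKM in WMW-H, 8.34 ± 0.242 in AOM/DSS and 6.81 ± 0.480 in control (SD, n = 5 each), with 428 to 539, 525 to 610 and 387 to 565 fragments behind the values in these groups. Bmp2 differed by 0.26 in AOM/DSS against control (SE 0.05, limma adjusted p = 0.000305), of which 0.14 lay above the median of all genes, and the call ended after quantile normalization (adjusted p = 0.147). In WMW-H against AOM/DSS the log2 change was -0.15 (adjusted p = 0.018). This call ended with size factors (adjusted p = 0.187), after quantile normalization (0.364) and without WMW-H replicate 2 (0.0559). Bmp2 in WMW-H did not pass against control, the log2 difference being 0.11 with an unadjusted 95% interval from 0.00 to 0.22 (adjusted p = 0.0755). It passed there without WMW-H replicate 2 (adjusted p = 0.0243) and without control replicate 1 (0.0256).

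**Figure D2:**
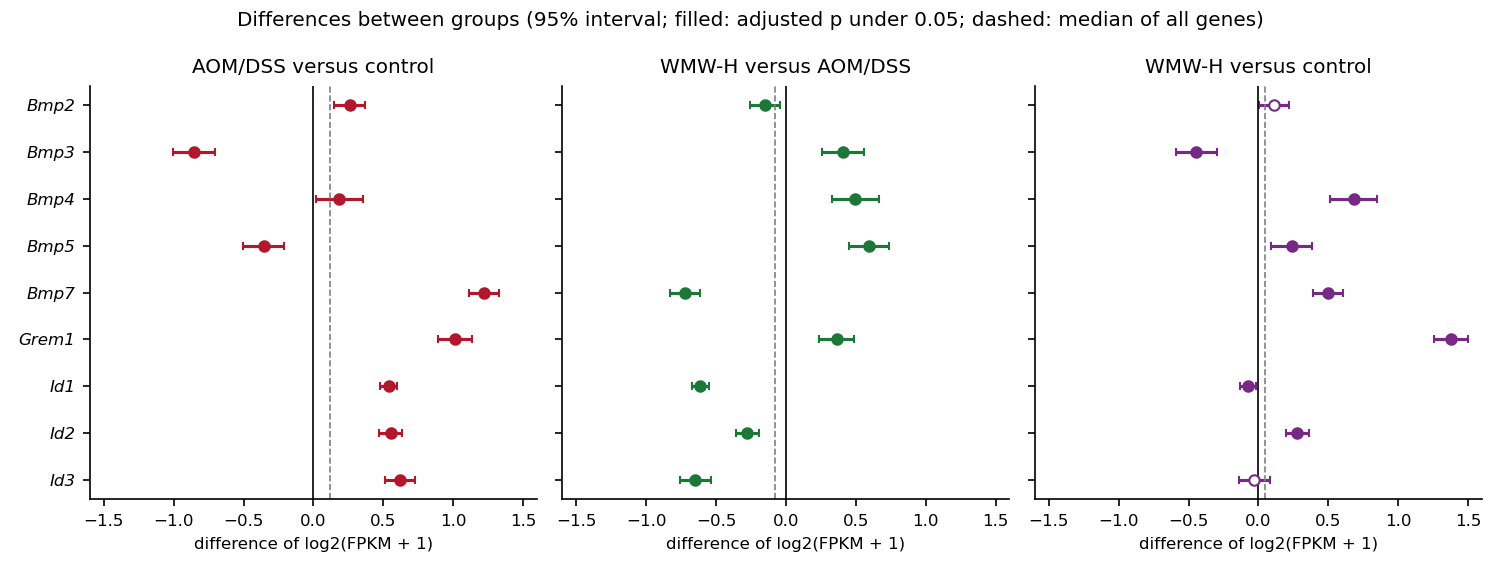
Differences of log2(FPKM + 1) for the 9 tested members (rows) in AOM/DSS versus control, WMW-H versus AOM/DSS and WMW-H versus control; bars are 95% intervals, filled points passed an adjusted p of 0.05 and the dashed line is the median of all genes. Bmp7 at 1.22 and Bmp3 at -0.85 lie farthest apart in AOM/DSS versus control, and Grem1 at 1.38 is the largest difference in WMW-H versus control.

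Summed over the 5 ligands, the level was 34.6 ± 1.19 FPKM in WMW-H, 32.1 ± 0.681 in AOM/DSS and 29.5 ± 0.302 in control (SD, n = 5 libraries each). The sum was not tested. All genes shifted as well, with a median log2 change of 0.12 in AOM/DSS against control and 0.05 in WMW-H against control. The makeup of the ligand sum differed between groups. Bmp7 made 14.2% of the ligand sum in WMW-H, 27.4% in AOM/DSS and 10.9% in control. Bmp3 made 18.2% in WMW-H, 14.1% in AOM/DSS and 30.3% in control, where it was the leading ligand. Bmp4 made 32.4% in WMW-H, where it led, 23.9% in AOM/DSS and 22.6% in control. In AOM/DSS, Bmp7 and Bmp2 were at the top with means of 8.78 ± 0.360 and 8.34 ± 0.242 FPKM, and their libraries overlapped in range.

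**Figure D3:**
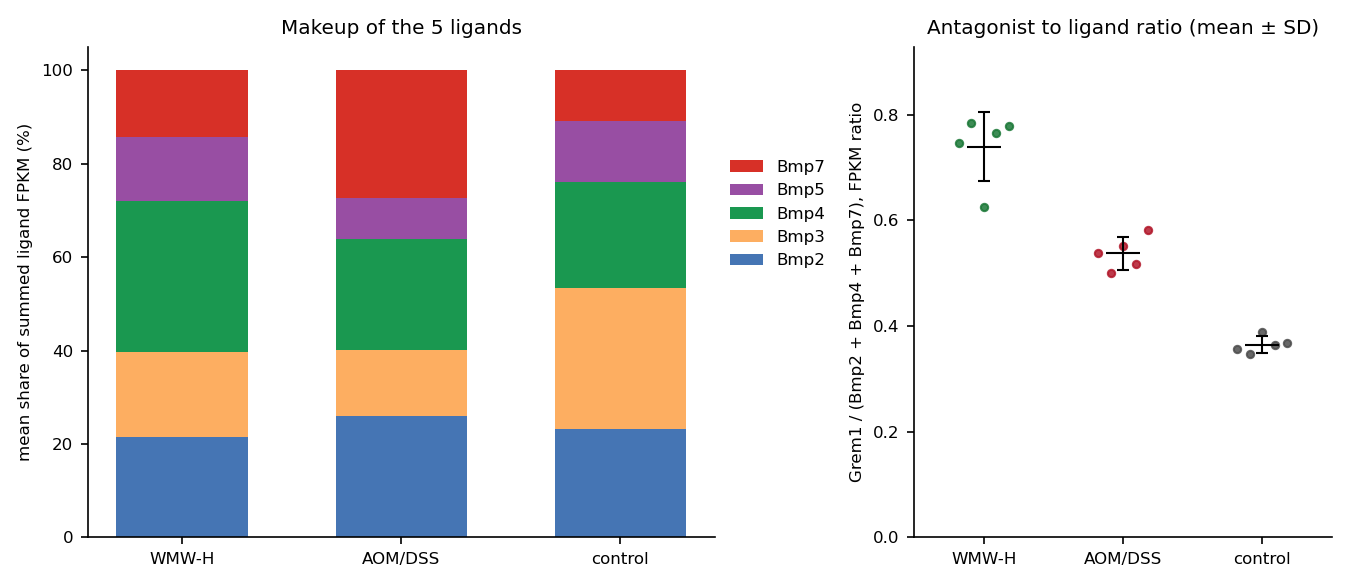
Left, mean share of each ligand in the summed FPKM of the 5 ligands (percent, stacked bars) in WMW-H, AOM/DSS and control. Right, the ratio of Grem1 to the sum of Bmp2, Bmp4 and Bmp7 (FPKM ratio) in each library with mean ± SD (n = 5). The ratio is 0.740 in WMW-H, 0.537 in AOM/DSS and 0.365 in control, with no overlap between groups. Grem1 alone does not overlap between groups either.

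Of the antagonists, Grem1 rose in AOM/DSS and in WMW-H against control, and Nog was under 1 FPKM in all libraries. Grem1 encodes gremlin 1, which binds BMP2, BMP4 and BMP7 and is made by stromal and muscle cells around the crypt base; raised GREM1 expression in the epithelium causes hereditary mixed polyposis in humans. It was at 17.8, 17.4, 15.4, 19.2 and 17.3 FPKM in the WMW-H libraries, at 14.0, 12.4, 13.5, 12.6 and 14.0 FPKM in the AOM/DSS libraries and at 5.94, 5.39, 6.63, 6.30 and 6.20 FPKM in the control libraries. The lowest WMW-H library lay above the highest AOM/DSS library, and all AOM/DSS libraries lay above all control libraries. With 1 annotated transcript, its values correspond to 1047 to 1476 fragments in WMW-H, 941 to 1109 in AOM/DSS and 390 to 521 in control. Grem1 differed by 1.01 on the log2 scale in AOM/DSS against control (SE 0.06, limma adjusted p = 8.85e-11) and 0.36 in WMW-H against AOM/DSS (adjusted p = 3.63e-05). Its log2 change in WMW-H against control was 1.38 (adjusted p = 3.29e-12), the only rise of at least 2-fold among the members there, as for 1.71% of all genes. A rise this large or larger was seen for 0.898% of tested genes. The ratio of Grem1 to the sum of the ligands it binds was 0.740 ± 0.066 in WMW-H, 0.537 ± 0.031 in AOM/DSS and 0.365 ± 0.016 in control (SD, n = 5 libraries each). That ratio did not overlap between groups. Grem1 alone already separated the groups, so the separation of this ratio largely follows from Grem1. The ligand sum was 22.3 to 25.0 FPKM in WMW-H, 24.2 to 26.1 in AOM/DSS and 15.6 to 17.3 in control.

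The summed fibroblast markers had the group order of Grem1, but single markers did not all share it. Pdgfra did, with means of 13.8 FPKM in WMW-H, 12.3 in AOM/DSS and 8.09 in control. Col1a1 was highest in AOM/DSS (42.8, 50.1 and 19.3 FPKM in these groups), and Dcn was lowest there (114, 59.3 and 63.4 FPKM). The plain sum weighs abundant genes most, such as Dcn and Col3a1, the latter at 160, 142 and 71.3 FPKM in these groups. Over 10 fibroblast genes the summed level was 468 to 514 FPKM in WMW-H, 405 to 422 in AOM/DSS and 260 to 266 in control. In AOM/DSS against control 8 of these rose and 2 fell, where 45.5% of all genes rose and 20.6% fell. In WMW-H against AOM/DSS 6 rose and 4 fell, where 25.9% of all genes rose and 40.9% fell. With TPM, FPKM rescaled to a common total, 4 rose and 4 fell there. In WMW-H against control all 10 rose, where 35.4% of all genes did. Per 100 FPKM of the fibroblast list, Grem1 was at 3.48 ± 0.170 FPKM in WMW-H, 3.24 ± 0.226 in AOM/DSS and 2.31 ± 0.161 in control (SD, n = 5 each), so the ratio in WMW-H and AOM/DSS overlapped and both lay above control. On the same scale Bmp4 was at 2.25 ± 0.265 in WMW-H, 1.87 ± 0.164 in AOM/DSS and 2.53 ± 0.331 in control, and Bmp5 at 0.944 ± 0.084, 0.678 ± 0.058 and 1.46 ± 0.166 in these groups. The part of fibroblast content in the differences of these 3 genes was not tested beyond these ratios. Smooth muscle of the gut wall is also known to express Grem1, and its summed markers ran from 2072 to 2186 FPKM in WMW-H, 2087 to 2157 in AOM/DSS and 2063 to 2128 in control, so the groups overlapped.

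Nog, which encodes noggin, an antagonist of the same ligands, was at 0.530, 0.707, 0.541, 0.347 and 0.576 FPKM in the WMW-H libraries, at 0.257, 0.496, 0.416, 0.756 and 0.697 FPKM in the AOM/DSS libraries and at 0.502, 0.745, 0.427, 0.756 and 0.315 FPKM in the control libraries. The groups overlapped fully. These values correspond to 10 to 22 fragments per library in WMW-H, 8 to 23 in AOM/DSS and 10 to 24 in control. By exact two-sided permutation of 5 against 5 libraries, no difference was detectable at this depth. The p was 0.802 in AOM/DSS against control, 0.865 in WMW-H against AOM/DSS and 0.96 in WMW-H against control (0.96 each after adjustment over these 3 comparisons). Grem1 was thus the more abundant antagonist transcript per length in each library, with a Grem1 to Nog ratio of 24.7 to 55.3 in WMW-H, 16.7 to 54.6 in AOM/DSS and 7.24 to 19.7 in control.

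**Figure D4:**
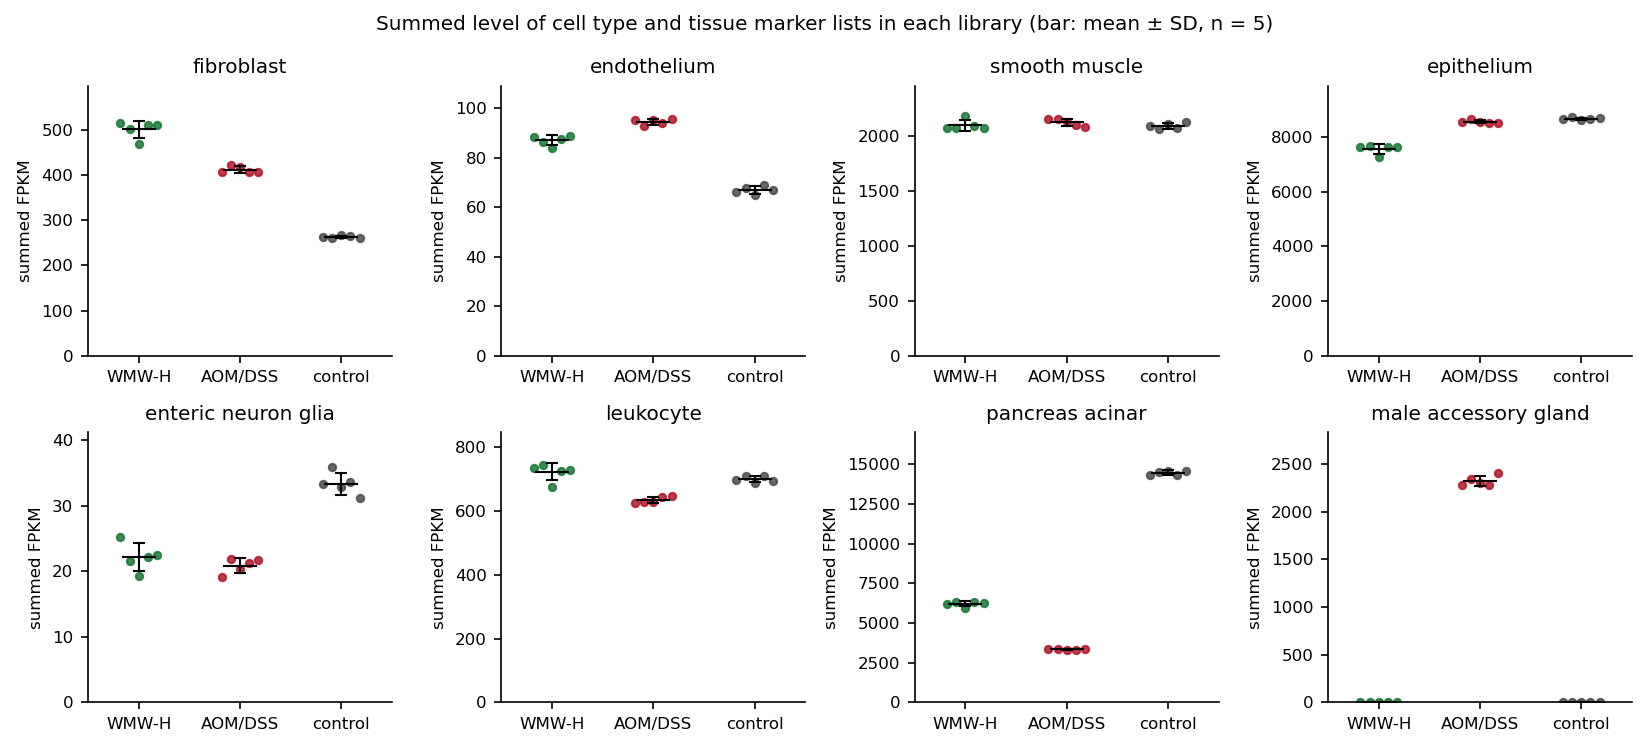
Summed FPKM of 8 lists of cell type or tissue markers in each library, with WMW-H on the left, AOM/DSS in the middle and control on the right; points are libraries and bars are the mean ± SD (n = 5). The fibroblast sums do not overlap between groups (468 to 514, 405 to 422 and 260 to 266 FPKM), the smooth muscle sums do, and the male accessory gland genes are high in AOM/DSS alone.

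The Id genes were the most abundant members. They encode helix-loop-helix proteins without a DNA-binding region, which pair with E proteins and keep them off DNA. Id1 was at 152, 148, 157, 146 and 148 FPKM in the WMW-H libraries, at 221, 231, 232, 230 and 235 FPKM in the AOM/DSS libraries and at 154, 158, 164, 163 and 151 FPKM in the control libraries. The AOM/DSS libraries lay above all others, and WMW-H overlapped control. The log2 change was 0.54 in AOM/DSS against control (SE 0.03, limma adjusted p = 2.42e-11), or 0.42 above the median of all genes, and -0.61 in WMW-H against AOM/DSS (adjusted p = 8.21e-12). In WMW-H against control it was -0.07 (adjusted p = 0.0329). That small difference did not pass after quantile normalization (adjusted p = 0.395), in the exact rank sum test (0.0929), in a fit of these 2 groups alone (0.0596) or with a robust variance without trend (0.0748). It did not pass either, with adjusted p-values from 0.0545 to 0.0916, when any of 6 single libraries was left out: WMW-H replicate 2, 4 or 5, or control replicate 2, 3 or 4.

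Id3 followed the same order. It was at 55.9, 50.8, 49.3, 45.5 and 48.6 FPKM in the WMW-H libraries, at 81.2, 82.1, 77.9, 73.9 and 79.3 FPKM in the AOM/DSS libraries and at 50.2, 53.0, 53.1, 53.6 and 45.3 FPKM in the control libraries. The log2 difference of Id3 was 0.62 in AOM/DSS against control (SE 0.05, limma adjusted p = 1.53e-08) and -0.65 in WMW-H against AOM/DSS (adjusted p = 1.1e-08). Between WMW-H and control the log2 difference was -0.03, with an unadjusted 95% interval from -0.14 to 0.08 (adjusted p = 0.656), and the libraries of these 2 groups overlapped.

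Id2 kept a difference from control in WMW-H. The WMW-H libraries held 22.3, 23.0, 21.8, 21.5 and 20.4 FPKM, the AOM/DSS libraries 27.0, 26.9, 25.4, 26.8 and 26.9 FPKM and the control libraries 18.4, 17.2, 19.1, 17.7 and 16.7 FPKM. No library of a group lay inside the range of another. The log2 change was 0.55 in AOM/DSS against control (SE 0.04, limma adjusted p = 1.63e-09), -0.27 in WMW-H against AOM/DSS (adjusted p = 1.04e-05) and 0.28 in WMW-H against control (adjusted p = 1.27e-05). Summed over the 3 genes, Id transcripts were at 222 ± 7.49 FPKM in WMW-H, 335 ± 5.32 in AOM/DSS and 227 ± 9.59 in control (SD, n = 5 libraries each), and Id1 made 67.6%, 68.6% and 69.7% of the sum in these groups.

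Endothelial cells are known to express Id1 and Id3 strongly, and their markers also differed between groups. The summed level of 10 endothelial genes was 84.2 to 89.0 FPKM in WMW-H, 92.7 to 95.6 in AOM/DSS and 65.1 to 69.1 in control. In AOM/DSS against control 9 of the 10 rose, where 45.5% of all genes did. In WMW-H against AOM/DSS 3 rose and 4 fell, near the shares of all genes, 25.9% rising and 40.9% falling. In WMW-H against control 9 rose, where 35.4% of all genes did. With TPM 2 rose and 6 fell in WMW-H against AOM/DSS, where size factors and quantile normalization gave 3 and 2. Quantile normalization left 5 higher and 1 lower in WMW-H against control. Per 100 FPKM of this list, Id1 was at 172 ± 8.62 FPKM in WMW-H, 243 ± 6.37 in AOM/DSS and 236 ± 10.4 in control (SD, n = 5 each). On that scale AOM/DSS and control overlapped, and WMW-H lay below both. The part of endothelial content in the Id differences was not tested beyond this ratio.

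The promoters of Id2 and Id3, which rose together in AOM/DSS, and of Grem1 and Bmp4, both highest in WMW-H, are shown because BMP-activated SMAD complexes bind GC-rich elements such as GGCGCC and the SMAD box GTCTG. Of the 10 members, 5 matched an entry of the RefSeq promoter table (build GRCm38.p6), of which the 250 bases before the annotated start are used here. Capitals mark GGCGCC, which reads the same on both strands, and GTCTG or its reverse complement CAGAC; these motifs do not overlap in the windows shown. Id2 is at chr12:25096093-25096342 on the minus strand, Id3 at chr4:136143572-136143821 on the plus strand, Grem1 at chr2:113758649-113758898 on the minus strand and Bmp4 at chr14:46390670-46390919 on the minus strand, each written 5′ to 3′ in the direction of its gene.
Id2: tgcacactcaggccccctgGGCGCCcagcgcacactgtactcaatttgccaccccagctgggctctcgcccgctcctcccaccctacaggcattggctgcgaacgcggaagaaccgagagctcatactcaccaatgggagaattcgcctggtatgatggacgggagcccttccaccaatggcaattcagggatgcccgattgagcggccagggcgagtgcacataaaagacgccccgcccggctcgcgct
Id3: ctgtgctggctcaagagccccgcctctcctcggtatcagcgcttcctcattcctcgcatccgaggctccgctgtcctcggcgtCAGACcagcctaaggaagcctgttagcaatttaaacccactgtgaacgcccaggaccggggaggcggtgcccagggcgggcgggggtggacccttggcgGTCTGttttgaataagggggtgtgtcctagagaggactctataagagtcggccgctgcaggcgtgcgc
Grem1: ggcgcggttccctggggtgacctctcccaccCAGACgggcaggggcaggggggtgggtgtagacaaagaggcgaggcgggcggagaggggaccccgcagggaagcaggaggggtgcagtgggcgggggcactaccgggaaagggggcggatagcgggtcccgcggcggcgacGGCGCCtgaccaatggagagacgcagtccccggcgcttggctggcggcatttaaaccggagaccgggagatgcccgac
Bmp4: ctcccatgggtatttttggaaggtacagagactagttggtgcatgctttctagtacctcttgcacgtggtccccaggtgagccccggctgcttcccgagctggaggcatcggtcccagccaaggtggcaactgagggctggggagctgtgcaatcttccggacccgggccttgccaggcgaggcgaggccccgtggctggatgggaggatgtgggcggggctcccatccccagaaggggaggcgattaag
GGCGCC occurred in the Id2 and Grem1 windows, against 9.59% of all 32851 promoter windows of this length, and GTCTG or CAGAC occurred in the Id3 and Grem1 windows and in that of Bmp5, against 42.2% of all windows. The palindrome GTCTAGAC, found in 0.167% of windows, was in none of the 5. The window of Bmp5, whose mean was also highest in WMW-H, is not shown. GC content was 62.8% in the Id2 window and 72% in that of Grem1, and the shares over all windows were not matched for it. These matches describe the letters alone.

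Beyond the members, 49 other genes of the pathway were listed by role, and 37 were tested. In AOM/DSS against control 28 rose, 6 fell and 3 did not pass, where 45.5% of all genes rose and 20.6% fell, with a median log2 change of 0.37 against 0.12 for all genes. In WMW-H against AOM/DSS 9 rose, 17 fell and 11 did not pass, with a median of -0.10 against -0.07. These counts are near the shares of all genes, 25.9% rising and 40.9% falling. Msx1 and Acvr2b are among the 28 rises and the 17 falls. Both passed the filter on low values mainly through the AOM/DSS libraries, so these calls were partly fixed by the filter. A like limit, given below, holds for Chrd, Fst and Chrdl2 among the 28 rises. It also holds for Sostdc1, among the 6 falls there and the 9 rises in WMW-H against AOM/DSS. In WMW-H against control 23 rose, 3 fell and 11 did not pass, where 35.4% of all genes rose and 24.1% fell, with a median of 0.23 against 0.05.

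Among the SMADs and the SMURF ubiquitin ligases that degrade them, all 7 tested genes rose in AOM/DSS against control. Over all genes tested, 45.5% rose there. Smad4, the partner shared with TGF-beta signalling, was at 30.7 ± 1.38 FPKM in WMW-H, 32.6 ± 0.454 in AOM/DSS and 23.6 ± 0.777 in control (SD, n = 5 each). The log2 change of Smad4 was 0.45 in AOM/DSS against control (limma adjusted p = 2.49e-09) and 0.36 in WMW-H against control (adjusted p = 6.46e-08). Smad7, an inhibitory SMAD, was at 7.90 ± 0.924 FPKM in WMW-H, 11.6 ± 1.67 in AOM/DSS and 6.55 ± 0.488 in control, a log2 change of 0.73 in AOM/DSS against control (adjusted p = 2.48e-06). The 7 also rose with TPM, size factors and quantile normalization. In WMW-H against AOM/DSS 5 genes of this list fell, 1 rose and 1 did not pass, where 40.9% of all genes fell and 25.9% rose. Size factors gave 4 falls and 1 rise there, and quantile normalization 4 falls and 2 rises. The fall of Smad4 was 0.08 on the log2 scale (limma adjusted p = 0.033). It ended under 10 of 27 alternatives, among them size factors (adjusted p = 0.817) and quantile normalization (0.929). Smad6, the inhibitory SMAD most tied to BMP signals and itself a BMP target, fell by 0.57 on the log2 scale (adjusted p = 5.79e-07), to 5.34 ± 0.484 FPKM in WMW-H, against 8.42 ± 0.680 in AOM/DSS. Smurf1 fell by 0.39 (adjusted p = 1.75e-07). Smad5, a receptor-regulated SMAD, and Smurf2 stayed above control in WMW-H, by 0.53 (adjusted p = 3.49e-08) and 0.54 (adjusted p = 1.25e-08).

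Of 9 tested receptor and co-receptor genes, 5 rose and 3 fell in AOM/DSS against control, and in WMW-H against AOM/DSS 2 were higher and 5 lower. With so few genes these counts are near the shares of all genes in both comparisons. Acvr2b, with the limit given above, is among the 5 that rose and the 5 that were lower. With quantile normalization 4 rose and 4 fell in AOM/DSS against control. Eng, the endothelial co-receptor endoglin, rose by 0.62 on the log2 scale in AOM/DSS against control (limma adjusted p = 2.12e-09), with 19.2 to 21.0 FPKM in AOM/DSS, against 11.7 to 13.6 in control. Acvr1, a type I receptor for BMP7 among other ligands, rose by 0.60 (adjusted p = 3.06e-07), to 11.3 ± 1.18 FPKM in AOM/DSS, against 7.15 ± 0.616 in control. The 3 that fell there, named after their values were seen, were Bmpr1a, Rgmb and Acvr2a. Bmpr1a, a type I receptor for BMP2 and BMP4, was at 15.3 to 16.9 FPKM in WMW-H, 11.6 to 12.9 in AOM/DSS and 13.7 to 15.8 in control. Bmpr1a fell by 0.21 on the log2 scale in AOM/DSS against control (adjusted p = 0.000473) and was 0.35 higher in WMW-H than in AOM/DSS (adjusted p = 2.31e-06). Rgmb, a BMP co-receptor, fell by 0.41 in AOM/DSS against control (adjusted p = 9.05e-05) and was 0.24 higher in WMW-H than in AOM/DSS (adjusted p = 0.00789). Acvr2a, a type II receptor, fell by 0.17 in AOM/DSS against control (adjusted p = 0.0192), a call that ended with TPM (0.0712) and without AOM/DSS replicate 1 (0.0605).

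Among the other antagonists, 8 of 11 tested rose and 2 fell in AOM/DSS against control, where 45.5% of all genes rose and 20.6% fell. Chrd, Fst and Chrdl2, among those that rose, averaged 0.880, 0.956 and 0.957 FPKM in control. They passed the filter on low values mainly through AOM/DSS and WMW-H. Sostdc1, among those that fell, averaged 0.594 FPKM in AOM/DSS and passed mainly through WMW-H and control. These calls were thus partly fixed by the filter. The count was 5 and 2 with size factors and 4 and 3 after quantile normalization. Fstl1, a secreted BMP-binding protein of stromal cells, was at 21.8 ± 0.539 FPKM in WMW-H, 19.7 ± 1.15 in AOM/DSS and 11.7 ± 0.230 in control (SD, n = 5 each), and rose by 0.84 on the log2 scale in WMW-H relative to control (limma adjusted p = 8.14e-12).

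The E proteins, the partners that Id proteins bind, rose as well. All 3 rose in AOM/DSS against control, where 45.5% of all genes rose, and also with TPM, size factors and quantile normalization. Tcf4 gained 1.30 on the log2 scale (limma adjusted p = 6.14e-13) and Tcf3 0.88 (adjusted p = 5.78e-12). Tcf4 was at 12.1 ± 1.02 FPKM in WMW-H, 20.5 ± 1.05 in AOM/DSS and 7.69 ± 0.304 in control (SD, n = 5 each), and Tcf3 at 18.8 ± 1.08, 29.7 ± 0.611 and 15.7 ± 0.817 FPKM in these groups. In WMW-H against AOM/DSS the log2 change was -0.71 for Tcf4 (adjusted p = 3.35e-09) and -0.63 for Tcf3 (adjusted p = 8.63e-10). Tcf12 stayed 0.48 above control in WMW-H (adjusted p = 2.56e-07). Msx1, a homeobox target of BMP signals, was at 0.945 ± 0.199 FPKM in WMW-H, 2.83 ± 0.415 in AOM/DSS and 0.136 ± 0.068 in control. It passed the filter on low values mainly through the AOM/DSS libraries, so its rise there was partly fixed by the filter. Id4, another gene of the Id family, was at 5.03 ± 0.358 FPKM in WMW-H, 3.77 ± 0.219 in AOM/DSS and 4.54 ± 0.514 in control, a log2 change of -0.21 in AOM/DSS against control (adjusted p = 0.00825) and 0.34 in WMW-H against AOM/DSS (adjusted p = 0.000214). Id4 kept both calls under all 27 alternatives, and was named after its values were seen. Of the 4 tested genes on the target list, Id4 alone fell in AOM/DSS against control, while Msx1, Atoh8 and Hey1 rose. In WMW-H against AOM/DSS Id4 rose and those 3 fell. Over all genes, 45.5% rose and 20.6% fell in the first comparison, and 25.9% rose and 40.9% fell in the second.

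**Figure D5:**
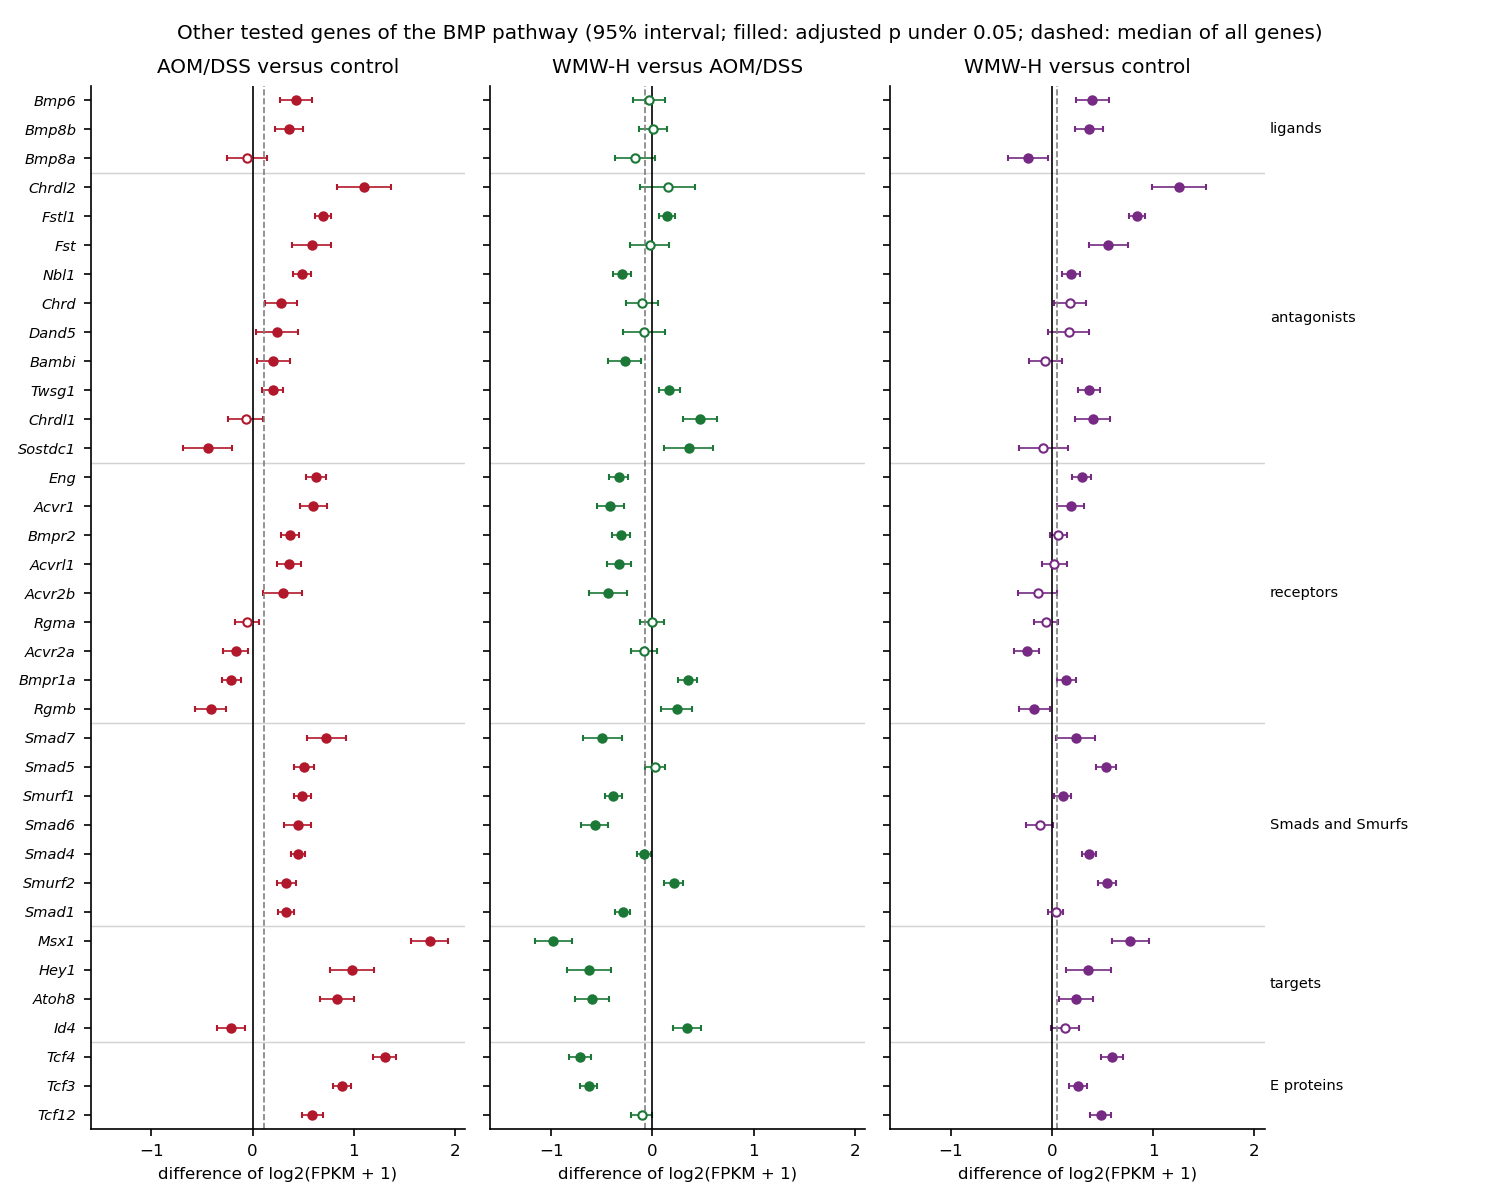
Differences of log2(FPKM + 1) for other tested genes of the pathway (rows, grouped by role) in the 3 comparisons; bars are 95% intervals, filled points passed an adjusted p of 0.05 and the dashed line is the median of all genes. All 7 SMAD and SMURF genes and all 3 E proteins lie to the right of 0 in AOM/DSS versus control.

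Bmp7 and Grem1, the members with changes of at least 2-fold, were set beside all other tested genes by the root mean square difference of log2(FPKM + 1) over the 15 libraries, each gene centred on its own mean. The profiles closest to Bmp7 were Sh3pxd2b, a scaffold protein of podosomes (0.08, against an SD of 0.52 for Bmp7 itself), and Cnn3, an actin-binding calponin (0.08). The profiles closest to Grem1 were the fibrillar collagen gene Col3a1 (0.13, against an SD of 0.61 for Grem1) and Lgi2 (0.14). Col3a1 averaged 160 ± 12.2 FPKM in WMW-H, 142 ± 5.74 in AOM/DSS and 71.3 ± 2.63 in control (SD, n = 5 each), and it is 1 of the 10 fibroblast markers.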

How the data were processed

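Colon RNA from 15 libraries was analysed. The labels' protocols describe oligo(dT) selection, an NEBNext Ultra kit and Novaseq sequencing. Among the tools in the submitters' processing notes, which state no role or order, are RSEM, HISAT2, fastp 0.18.0, StringTie 1.3.1 and Bowtie2 2.2.8; no source used here names the build. The authors deposited FPKM values for 22063 genes, summing to 507895 to 535410 per library.

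FPKM are not counts, so a count test was not run. Depth was estimated from low values of 3328 genes with 1 GENCODE transcript: 87.7% to 93.0% of these per library came within 0.1 of a whole fragment. Values were transformed to log2(FPKM + 1), which understates changes of low genes, filtered at 1 FPKM in 5 libraries, and tested by limma 3.58.1 (R 4.3.3, variance trend) using group means over the 15 libraries jointly. The steps were tested on simulated data. Figures were drawn with matplotlib 3.10.9. The alternatives were other pseudocounts, filters, scalings, tests and variance models, a replicate block and leaving out each library.

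The members and gene lists were chosen with earlier results of these data known. Other pathway genes were named from the 6 called genes per comparison with the smallest adjusted p and from called receptor or SMAD genes changed at least 1.5-fold; for members called at 2-fold or more, the 2 closest profiles were named. Id4, Foxl1, Bmpr1a, Rgmb and Acvr2a were added. A gene that this rule names is not reported here. The labels do not say that the libraries came from separate animals, so p-values measure the spread between these libraries, which may be technical.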

Additional observations from a re-analysis of the deposited data

Results flagged for a closer look

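Of 30 groups of 5 libraries examined (10 genes in 3 groups), 2 held a library far from the others, and chance gives about 1 in 20. Bmp3 in AOM/DSS replicate 4 was at 5.489 FPKM, where the other AOM/DSS libraries lay between 4.10 and 4.35; without it the log2 change in AOM/DSS against control was -0.91 (limma adjusted p = 2.23e-09). Id2 in AOM/DSS replicate 3 was at 25.394 FPKM, where the others lay between 26.8 and 27.0; without it the log2 change was 0.57 (adjusted p = 6.01e-09).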

How the results depend on the processing

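For the 9 tested members in 3 comparisons, 27 alternatives were run. Of the 729 resulting values 696 stayed on the same side of the threshold, 31 lost the call, 2 gained it and 0 reversed a call. The 696 include changes of sign where no call was made. Id3 in WMW-H against control, which passed under none, ran from -0.08 to 0.004 on the log2 scale. The changed values belong to Bmp4 and Bmp2 in AOM/DSS against control, Bmp2 in WMW-H against AOM/DSS, and Bmp2 and Id1 in WMW-H against control, as given above. The number of members lower in WMW-H against control was 2 and became 1 after quantile normalization, with only the 2 groups compared, in the exact rank sum test and with a robust variance without trend, in each case through Id1; leaving out single libraries gave 1 to 2. The number of other pathway genes lower there was 3 and became 5 after quantile normalization, 1 in the exact rank sum test and 1 with array weights; leaving out single libraries gave 1 to 4. The cause was not tested. Scaling moved the median log2 change of all genes in AOM/DSS against control between 0.17 with TPM and -0.02 after quantile normalization, with 74.4% and 47.5% of calls higher under these and 68.9% as deposited.

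Replicate numbers did not pair the libraries: deviations of same-numbered libraries from their group means correlated between -0.05 and 0.03. With a replicate block the genes called were 8485 in AOM/DSS against control, 8574 in WMW-H against AOM/DSS and 7598 in WMW-H against control, against 8539, 8633 and 7686 without it; of the 9 members' calls, the block ended that of Bmp4 in AOM/DSS against control (adjusted p = 0.07). Depth limits Nog most, with 8 to 24 fragments per library.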
